A study of Mus musculus with 16 samples.

Results

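The effects of a pair of knockout lines on trimethylation of histone H3 at lysine 4 (H3K4me3) were set against each other in the adult mouse hippocampus. The quantity described is the effect in the KO line minus the effect in the line the labels call ifKO. In full it is the log2 change of KO over WT, less the log2 change of ifKO over its controls, written ifWT here. A positive difference therefore means that the mark rose more, or fell less, in KO mice than in ifKO mice. It rests on 8 of the 16 libraries of the series, 2 in each of 4 groups, and on all 35791 regions that passed a filter on low counts.

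The first group was KO, mice with a knockout of Kdm5c on a mixed background (F1:C57/129). Its controls were wild-type mice (WT) of that same mixed background. The other pair was ifKO Kdm5c mice and their control mice (ifWT), both on a pure C57BL/6J background. All mice were males of 2 to 4 months, controls were littermates, none of these 8 libraries came from mice exposed to novelty, and each library pooled the hippocampi of 2 mice. The sources used here do not say how the ifKO line was made or from which cells the gene was removed. The line, the cohort and the genetic background change together between the pairs and cannot be told apart. In bulk tissue, more cells carrying the mark and more of the mark per cell also cannot be told apart.

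H3K4me3 marks the promoters of active and poised genes. Kdm5c, on the X chromosome, encodes a demethylase that removes methyl groups from H3K4, mainly from the trimethylated and dimethylated forms. In neurons it is known for keeping genes of other tissues, germline genes among them, from being marked and expressed, and its loss causes intellectual disability in people.

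Promoters of 4 genes with a differing region are printed here. They were picked because, among the genes with the largest differences and the called list members, these had a called region holding the start of the gene. Most differing regions held no listed start of a gene, so these 4 do not stand for all of them. In D1Pas1 and Gm16013 the mark rose in KO mice, and in Gm46874 it rose in ifKO mice. In Zfp972 it was called lower in KO mice, though not in the mice sampled after novelty. That region also lies inside the transcribed pseudogene Gm14327. Each stretch runs from 250 bases before to 50 after the start of the gene in RefSeq (GRCm38.p6), 5′ to 3′ on the strand of the gene, with the dinucleotide CG in capitals.
D1Pas1, chr1:186967166-186967465, plus strand: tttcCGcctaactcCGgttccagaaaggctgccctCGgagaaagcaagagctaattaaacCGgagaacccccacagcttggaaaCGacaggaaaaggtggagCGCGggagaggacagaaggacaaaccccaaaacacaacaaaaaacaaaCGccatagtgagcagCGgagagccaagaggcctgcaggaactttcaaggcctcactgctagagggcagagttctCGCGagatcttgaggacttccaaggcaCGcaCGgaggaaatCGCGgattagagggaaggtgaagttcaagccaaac
Gm16013, chr11:71436435-71436734, minus strand: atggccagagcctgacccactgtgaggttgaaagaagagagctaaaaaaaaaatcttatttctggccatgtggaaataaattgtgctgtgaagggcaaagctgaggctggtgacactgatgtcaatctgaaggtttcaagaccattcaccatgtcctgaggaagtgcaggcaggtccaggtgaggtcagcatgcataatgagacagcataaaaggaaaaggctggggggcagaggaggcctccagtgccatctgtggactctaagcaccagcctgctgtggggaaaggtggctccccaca
Gm46874, chr4:141885571-141885870, minus strand: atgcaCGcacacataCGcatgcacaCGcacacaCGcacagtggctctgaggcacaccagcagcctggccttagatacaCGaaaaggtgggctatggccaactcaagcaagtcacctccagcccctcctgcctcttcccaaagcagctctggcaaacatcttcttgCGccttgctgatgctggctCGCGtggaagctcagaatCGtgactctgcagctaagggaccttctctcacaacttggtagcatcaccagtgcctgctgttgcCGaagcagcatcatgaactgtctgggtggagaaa
Zfp972, chr2:177925601-177925900, minus strand: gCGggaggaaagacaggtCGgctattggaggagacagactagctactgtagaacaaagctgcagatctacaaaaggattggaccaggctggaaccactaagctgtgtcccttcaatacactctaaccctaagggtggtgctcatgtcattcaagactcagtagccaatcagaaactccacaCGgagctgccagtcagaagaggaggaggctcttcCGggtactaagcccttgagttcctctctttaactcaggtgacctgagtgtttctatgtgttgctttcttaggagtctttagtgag

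The 4 promoters were alike in GC content, between 49% and 55.7%, and differed in CG dinucleotides. D1Pas1 held 15 CG dinucleotides, Gm46874 held 10, Zfp972 held 4 and Gm16013 held 0, against a median of 7 and quartiles of 3 and 20 over the 32851 mouse promoters of the same length. The E-box CACGTG and the E2F-type motif TTCCCGC, read on both strands, were in none of the 4. Over all promoters 7.15% held the first and 4.60% the second.

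The libraries held 18181192 to 26433417 counts over the regions, so that 3 counts corresponded to 0.109 to 0.168 CPM (counts per megaread of the scaled library). Of 28 pyramidal and granule cell genes 27 were measured, with a median level of 6.22 log2 CPM, against 5.45 over all genes with a region at a gene end, 4.04 for genes of other brain regions and 2.13 for microglia genes. Ribosomal genes, which all cells use, stood at 6.27, so this level does not by itself identify the tissue. The strongest single region took 0.744% to 3.604% of a library, with the highest share in 1 ifKO library. The 2 ifKO libraries differed from each other by more than the libraries of other groups, at a chi-square per degree of freedom of 7.60, against 2.78 in KO, 2.23 in WT and 4.44 in ifWT. The H3K4me3 region at Kdm5c itself (chromosome X, 152232907 to 152234889) held 59.6 and 59.6 CPM in KO, 65.9 and 71.9 in WT, 53.7 and 59.3 in ifKO, and 57.4 and 61.1 in ifWT. A mark at the promoter does not show whether the gene was deleted, and the difference of -0.14 was not called (95% interval -0.33 to 0.05), though KO over WT alone was, at -0.21 (edgeR adjusted p = 0.033).

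The KO effect and the ifKO effect differed at few regions, and at 122 of 149 the mark was called higher in KO over WT and not called in ifKO over ifWT. The difference was called at 149 regions, 0.416% of those tested, by edgeR's quasi-likelihood test at a Benjamini-Hochberg adjusted p of 0.05. It was positive at 136 of them (0.38% of regions tested) and negative at 13 (0.0363%). The 136 had a median difference of 1.98 on the log2 scale and 110 of them differed at least 2-fold. Over all regions the median difference was -0.01, and 2920 regions had an unadjusted p under 0.05. The count depended on single libraries: it was 59 without WT replicate 2, 81 without WT replicate 1 and 290 without ifKO replicate 2, and DESeq2 called 91. The split of directions did too: negative differences were 95 of the 290 without ifKO replicate 2 and 41 of 101 without ifWT replicate 2.

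**Figure D1:**
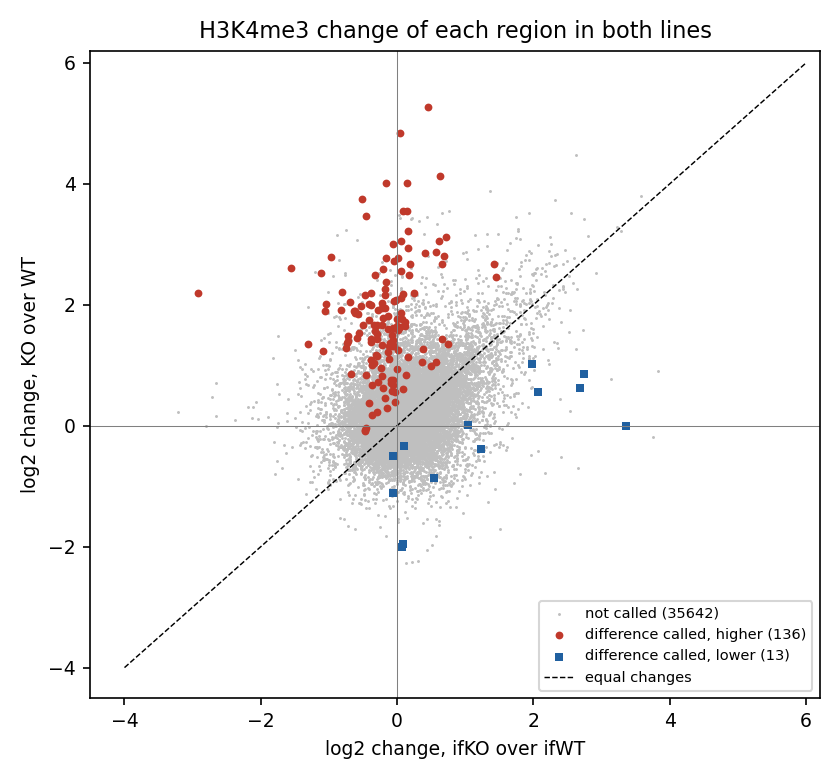
Each point is 1 of 35791 regions, with its log2 change of ifKO over ifWT on the x axis and of KO over WT on the y axis. Of the called regions, 136 lie above the dashed line of equal changes (red) and 13 below it (blue squares), and most red points sit near 0 on the x axis.

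Each effect on its own called many more regions. KO over WT was called at 4578 regions (12.8%), 3174 of them higher (8.87%) and 1404 lower (3.92%). IfKO over ifWT was called at 1631 regions (4.56%), 1499 higher (4.19%) and 132 lower (0.369%). A region called in one line and not in the other was seldom shown to differ: of 2031 regions called higher in KO alone, 122 had a called difference, and of 1380 called lower in KO alone, 6 did. Regions called higher in KO had a median log2 change of 0.88 in KO over WT and 0.40 in ifKO over ifWT. Regions called higher in ifKO had a median of 0.82 in ifKO over ifWT and 0.73 in KO over WT. In each set the effect that chose the regions was read from the same libraries, which tends to enlarge it. Across all regions the 2 effects, which share no library, had Pearson's r of 0.40 and Spearman's rho of 0.34, given as a description since regions are not independent.

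Among the 149 called regions, which share their libraries with both effects, 122 were higher in KO alone and 6 lower in KO alone, where alone means that the other effect was not called, not that it was absent. In ifKO alone, 5 of the called regions with a positive difference were lower and 4 with a negative one were higher. Both effects were called in the same direction at 10 and in opposite directions at 2. In 125 of the 136 positive regions, both KO libraries lay above the other 6, against 11.3% of all regions. The 122 regions higher in KO alone had a median log2 change of 1.75 in KO over WT and -0.17 in ifKO over ifWT. These regions were chosen by the same 8 libraries, so the separation and the medians are partly built into the choice.

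The largest differences came from regions nearly without the mark in the other 3 groups. A region passed the filter with enough reads in any 2 libraries, so a region high in KO alone could pass. Ranking by the difference also favours such regions. A fit without the filter called the same 149 regions. It keeps every region that passed the filter, so it does not bear on how regions high in KO alone came to be included. Ssh1 encodes a phosphatase that activates the actin-severing protein cofilin. A region inside the gene (chromosome 5, 113942805 to 113943958) held 8.09 and 6.14 CPM in KO, 0.222 and 0.133 in WT, 0.207 and 0.503 in ifKO, and 0.290 and 0.222 in ifWT. The 2 KO libraries stood far above the other 6, which overlapped one another. The difference was 4.83 ± 0.83 (SE; edgeR adjusted p = 0.0036), and the adjusted p was between 0.00017 and 0.054 over 17 alternatives, highest without ifWT replicate 1. The promoter of the same gene showed no such change: it held 43.2 and 47.1 CPM in KO, 50.4 and 47.0 in WT, 52.7 and 55.3 in ifKO, and 55.8 and 53.0 in ifWT, a difference of -0.10 (95% interval -0.30 to 0.10).

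Gm16013, a long non-coding RNA gene, lost no call under any alternative. The region over its start (chromosome 11, 71434923 to 71436669) held 10.1 and 7.48 CPM in KO, 0.578 and 0.712 in WT, 0.723 and 0.894 in ifKO, and 0.919 and 1.38 in ifWT. The KO libraries did not overlap the others, and the difference was 4.27 ± 0.47 (edgeR adjusted p = 8.7e-06). Lpgat1 encodes an acyltransferase of phospholipid synthesis. At one of its ends (chromosome 1, 191785530 to 191787406) 13.8 and 9.11 CPM were found in KO, 1.24 and 1.201 in WT, 1.96 and 1.12 in ifKO, and 1.06 and 1.69 in ifWT. Here too only KO was high, with a difference of 3.05 ± 0.44 (edgeR adjusted p = 0.00036). Of the next largest, Gm33919 (4.17), Cdk19, a kinase of the Mediator complex (3.87), Gm29642 (3.47), Gm41429 (3.07) and LOC108167736 (3.01) had KO levels of 3.88 to 7.20 CPM and at most 1.60 CPM in any library of the other groups. The Cdk19 and Gm33919 regions lie between genes, 10887 and 30347 bases from the named gene. Gm29642 lost its call without ifWT replicate 2 (adjusted p = 0.37; 0.0013 to 0.37 over the alternatives).

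**Figure D2:**
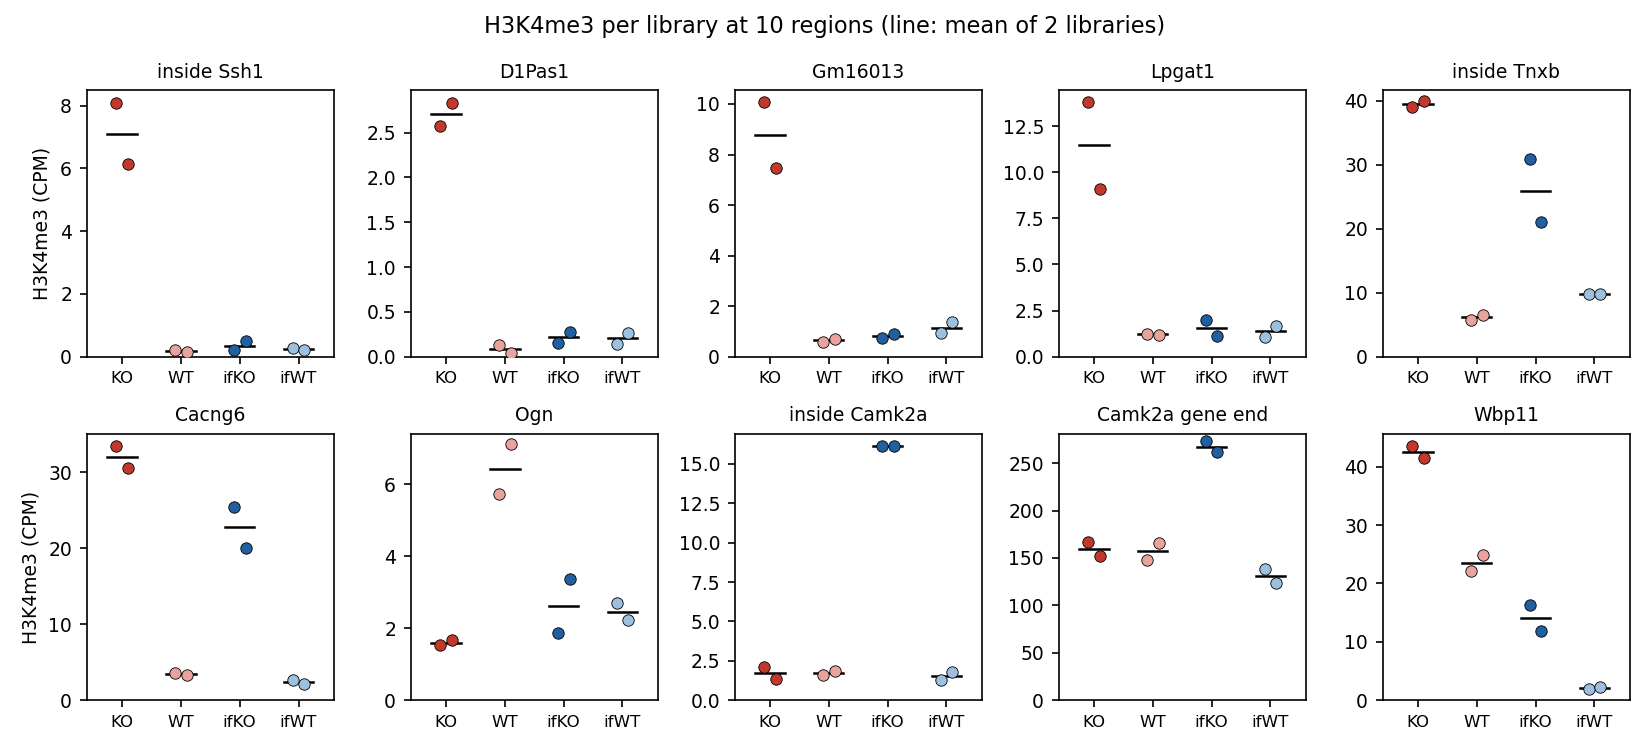
H3K4me3 in CPM at 10 regions, with 1 point per library and a line at the mean of the 2 libraries of KO, WT, ifKO and ifWT. The upper row starts with regions raised in KO alone, Tnxb and Cacng6 are raised in both lines, and the region inside Camk2a is raised in ifKO alone.

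At 7 regions the mark rose in both lines and rose more in KO. Tnxb encodes tenascin X, a protein of the extracellular matrix. A region inside it (chromosome 17, 34671150 to 34673476) held 39.0 and 39.9 CPM in KO, 5.78 and 6.58 in WT, 30.8 and 21.1 in ifKO, and 9.77 and 9.72 in ifWT. All 4 knockout libraries stood above all 4 controls, and the difference was 1.26 ± 0.20 (edgeR adjusted p = 0.0012). The controls were not equal: WT was lower than ifWT by 0.66 (log2; adjusted p = 0.0056). At an end of Zfp532, a zinc finger gene, the difference was 0.49 ± 0.09 (edgeR adjusted p = 0.0043), with 101 and 105 CPM in KO, 48.8 and 50.4 in WT, 108 and 105 in ifKO, and 75.5 and 68.3 in ifWT. In that region the 2 knockout groups had about the same level. The controls differed, by -0.53 for WT over ifWT (edgeR adjusted p = 9.9e-07). Whether this accounts for the called difference was not tested. A weaker region beside it at Zfp532 (chromosome 18, 65578583 to 65579249) had another pattern. It held 22.3 and 17.9 CPM in KO, 1.42 and 1.60 in WT, 5.37 and 5.03 in ifKO, and 1.02 and 1.06 in ifWT. Its difference of 1.41 was not called (edgeR adjusted p = 0.056), nor was WT over ifWT, at 0.54 (edgeR adjusted p = 0.24). A region between genes, 7399 bases from Gm38452, had a difference of 1.01 ± 0.22 (edgeR adjusted p = 0.028, 0.0077 to 0.21 over the alternatives).

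Of the genes picked by name, 4 had regions that rose in both lines by amounts whose difference was not called. Cacng6, a calcium channel subunit gene, held 33.4 and 30.6 CPM in KO, 3.51 and 3.34 in WT, 25.5 and 20.01 in ifKO, and 2.61 and 2.09 in ifWT. The knockout libraries of both lines were far above their controls, and the difference was -0.06 (95% interval -0.54 to 0.42). Glp2r, a peptide hormone receptor gene, had a difference of 0.67 (-0.24 to 1.58). The region shared by Rhof and Setd1b, which encodes an H3K4 methyltransferase, had -0.00 (-0.16 to 0.16). Npas4, an activity-induced transcription factor gene, had -0.05 (-0.58 to 0.47). These intervals bound the difference and do not show that the lines act alike. Gins2, with a difference of 0.28 (-0.04 to 0.60), was called neither in KO over WT nor in ifKO over ifWT.

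Of the 13 regions with a negative difference, 4 were called higher in ifKO alone and 6 were called lower in KO alone. The other 3 were called higher in both lines, with the larger log2 rise in ifKO. The rise in ifKO was led by the Camk2a locus on chromosome 18, described with the chromosomes. Gm46874, a long non-coding RNA gene, held 3.26 and 3.23 CPM in KO, 2.13 and 2.09 in WT, 6.35 and 4.64 in ifKO, and 0.822 and 0.887 in ifWT. The ifKO libraries were the highest and the ifWT libraries the lowest, and the difference was -2.06 ± 0.37 (edgeR adjusted p = 0.0050). Both KO libraries also lay above both WT libraries, by 0.62 (log2; adjusted p = 0.084), and after novelty KO was called higher than WT by 1.09. Henmt1, which methylates the small RNAs of the germline, had -1.62 ± 0.31 (edgeR adjusted p = 0.011), with 2.05 and 3.304 CPM in KO, 3.65 and 3.42 in WT, 6.61 and 6.99 in ifKO, and 2.999 and 2.795 in ifWT. Its call was lost in 4 of the 8 fits without 1 library (adjusted p up to 0.071; 0.0020 to 0.071 over the alternatives).

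Wbp11, a splicing factor gene, had different levels in the 2 control groups and in the 2 knockout groups. An end of it (chromosome 6, 136815410 to 136817530) held 43.5 and 41.6 CPM in KO, 22.1 and 24.8 in WT, 16.3 and 11.9 in ifKO, and 1.98 and 2.22 in ifWT. The mark rose in both lines, yet WT lay above both ifKO and ifWT. The difference was -1.89 ± 0.21 (edgeR adjusted p = 9.9e-06), and WT exceeded ifWT by 3.47 (adjusted p = 1.3e-14). Over all regions WT and ifWT differed at 4724 (13.2%), 2364 higher in WT (6.61%) and 2360 lower (6.59%).

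Ogn, Zfp972, Net1, Cfl2 and Gm45871 were among the 6 called lower in KO alone. Ogn encodes a small proteoglycan of connective tissue and was in the list of vascular and mural genes. It held 1.53 and 1.67 CPM in KO, 5.73 and 7.12 in WT, 1.86 and 3.35 in ifKO, and 2.71 and 2.22 in ifWT. The 2 WT libraries were above the other 6, and the difference was -2.07 ± 0.37 (edgeR adjusted p = 0.0047; 0.00023 to 0.055 over the alternatives, highest without WT replicate 2). WT also exceeded ifWT there, by 1.38 (log2; adjusted p = 0.00019). Zfp972, a zinc finger gene, had -2.04 ± 0.45 (edgeR adjusted p = 0.031; 0.0048 to 0.23) and Net1, an activator of RhoA, -0.44 ± 0.10 (edgeR adjusted p = 0.039; 0.023 to 0.23). Cfl2, the muscle form of cofilin, had -0.44 ± 0.08 (edgeR adjusted p = 0.0050). Gm45871 had -1.40 ± 0.29 (edgeR adjusted p = 0.019; 5.0e-05 to 0.65, highest in DESeq2), with 4.39 and 3.23 CPM in KO, 5.91 and 7.83 in WT, 32.0 and 17.9 in ifKO, and 15.4 and 18.8 in ifWT. There ifKO and ifWT overlapped, and both stood above KO and WT, with a log2 change of -1.32 for WT over ifWT (adjusted p = 3.3e-05). KO over WT was -0.86, and ifKO over ifWT was 0.55 and not called (edgeR adjusted p = 0.075). The region lies between genes, 8256 bases from Gm45871. Of 23 vascular and mural genes 1 was called, while 0.378% of all gene-end regions were, and the list had a median difference of -0.15, against -0.03 over 21508 genes with a region at a gene end.

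Differing regions lay on all 19 autosomes and on neither sex chromosome. Chromosome 18 had the highest share, with 12 of 1220 regions called (0.984%), 8 positive and 4 negative. Chromosome 9 followed with 17 of 1872 (0.908%), chromosome 12 with 12 of 1472 (0.815%) and chromosome 1 with 15 of 2207 (0.680%). The lowest autosome was chromosome 14, with 2 of 1357 (0.147%). No region was called among 957 on X and 45 on Y, against 0.416% of all regions, although KO over WT alone was called at 80 regions of X (8.36%) and ifKO over ifWT at 21 (2.19%). Neighbouring regions each count in these shares. The calls on chromosome 18 included groups of 4, 3 and 2 regions with gaps under 1 Mb, and chromosomes 9 and 12 held such groups too. The shares are descriptions, and no test of unequal spread over chromosomes was made.

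**Figure D3:**
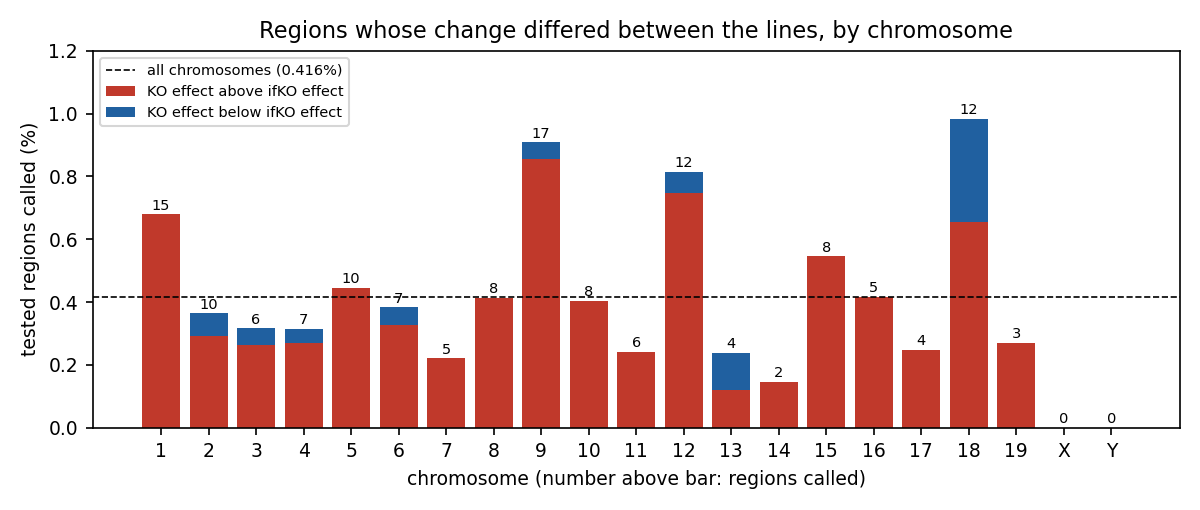
Percent of tested regions called on each chromosome, split into positive differences (red) and negative ones (blue), with the number of called regions above each bar. The dashed line is the share over all chromosomes, 0.416%, and chromosomes 18, 9 and 12 stand highest.

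Within chromosomes the calls were spread thinly. Of 513 windows of 5 Mb with at least 10 regions, 103 held a called region, 70 of them just 1, 25 held 2 and 8 held 3 or more. The 5 windows with the highest share were chromosome 18 from 0 to 5 Mb (1 of 15 regions), chromosome 9 from 25 to 30 Mb (2 of 33), chromosome 12 from 55 to 60 Mb (3 of 53), chromosome 13 from 0 to 5 Mb (1 of 20) and chromosome 10 from 70 to 75 Mb (3 of 64). They were carried by Map3k8, a kinase gene (1.95 ± 0.40; edgeR adjusted p = 0.020, 0.0075 to 0.21 over the alternatives), by Gm29642, by the Fam177a genes, by Net1, and by Gm33979 (2.50 ± 0.43) and Gm51772 (1.83 ± 0.34). Split into 3 equal stretches from position 0, the chromosomes had 0.281% of regions called in the first, 0.371% in the middle and 0.541% in the last.

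Most close neighbours of a called region were not called, but more of them were than among all regions. When the next region lay within 10 kb of a called one, it was called in the same direction in 11 of 62 cases (17.7%), while 0.544% of all regions with a neighbour so close were followed by a called one. From 10 to 100 kb it was 3 of 69 (4.35%, against 0.411%), from 100 kb to 1 Mb 0 of 17, and in no case was the neighbour called in the opposite direction. Joined over gaps of up to 1 Mb, 54 of the called regions formed 22 groups, 8 of which held 3 or more regions, and 95 stood alone. Adjacent regions can be pieces of one domain of the mark, so they are not independent calls.

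The largest groups with positive differences were on chromosomes 9 and 18. Between positions 43269520 and 43521035 of chromosome 9, 4 of 5 regions at D630033O11Rik and Gm36855 differed by 1.22 to 3.06. Inside Fbxw23 on the same chromosome, 3 of 4 regions between 109537113 and 109539958 differed by 2.13 to 3.93, and the first of them held 7.32 and 5.45 CPM in KO, 1.82 and 1.47 in WT, 3.51 and 2.63 in ifKO, and 3.34 and 3.64 in ifWT. WT lay below ifWT at this first region (log2 -1.08; edgeR adjusted p = 0.0041). At the other called regions of Fbxw23 the control change was -0.80 and -1.45 and not called. On chromosome 18, 4 of 29 regions at Myo5b, a myosin motor gene, Dym and Ctif differed by 0.49 to 2.78 over 831 kb.

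Camk2a encodes a subunit of the calcium-dependent kinase that excitatory forebrain neurons use in synaptic plasticity. At one of its ends (chromosome 18, 60925613 to 60929614) 166 and 152 CPM were found in KO, 148 and 166 in WT, 273 and 262 in ifKO, and 138 and 123 in ifWT. The region further inside the gene that is assigned to Gm46632 (60977783 to 60978714) held 2.09 and 1.34 CPM in KO, 1.60 and 1.82 in WT, 16.2 and 16.2 in ifKO, and 1.31 and 1.82 in ifWT. In both, the ifKO libraries stood above the other 6. KO and WT overlapped each other, and ifWT lay below them at the end of the gene and among them further inside. The differences were -1.01 ± 0.09 (edgeR adjusted p = 2.5e-07) and -3.36 ± 0.35 (edgeR adjusted p = 4.1e-06).

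The rise in ifKO spanned the neighbourhood. Arsi, a sulfatase gene beside Camk2a, held 16.7 and 14.01 CPM in KO, 9.07 and 11.8 in WT, 41.5 and 34.8 in ifKO, and 10.1 and 8.21 in ifWT, a difference of -1.51 ± 0.19 (edgeR adjusted p = 0.00010). Looked at after these calls were seen, 8 regions in a row from Gm41744 to Slc6a7 were called higher in ifKO over ifWT, by 1.36 at Gm41744, 3.13 at Gm41745, 1.62 and 1.26 at the inner Camk2a regions and 0.55 at Slc6a7. In KO over WT, 5 of the 8 were called higher too: Gm41744 by 0.89, Arsi by 0.55, the inner Camk2a regions by 0.79 and 0.73 and Slc6a7 by 0.24. The flanking regions had -0.08 at Tcof1 and -0.15 at Pdgfrb in ifKO over ifWT and were not called. No input libraries were used here, so a change of the mark and a change in the number of DNA copies cannot be told apart. As general background, Cre drivers for adult forebrain neurons are often built from Camk2a sequences, and the sources used here do not name the driver of the ifKO line.

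On chromosome 12, Fam177a, Fam177a2 and the region shared by Gm2446 and Srp54c had small positive differences. The mark was called lower there in ifKO over ifWT and not called in KO over WT. Fam177a held 98.3 and 109 CPM in KO, 108 and 105 in WT, 44.0 and 43.4 in ifKO, and 61.1 and 58.5 in ifWT, a difference of 0.42 ± 0.09 (edgeR adjusted p = 0.023; 0.0055 to 0.19 over the alternatives). Both groups of the mixed background stood far above both C57BL/6J groups. Fam177a2 had 0.40 ± 0.09 with nearly the same levels. After novelty KO over WT was called lower at Fam177a2 (-0.14; edgeR adjusted p = 0.033). It was not called at Fam177a (-0.11) or at the region shared by Gm2446 and Srp54c (-0.11). These genes have near-identical copies beside each other, between which reads may be split, so their values are uncertain. En2, a homeobox gene of the midbrain and hindbrain, moved in opposite directions: 21.6 and 24.9 CPM in KO, 17.3 and 18.4 in WT, 18.4 and 20.1 in ifKO, and 26.4 and 24.8 in ifWT. The difference was 0.79 ± 0.15 (edgeR adjusted p = 0.0065; 0.0016 to 0.061 over the alternatives). WT lay below ifWT there (log2 -0.52; adjusted p = 0.00093), and after novelty KO over WT was not called (0.10).

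The called regions lay at gene ends, inside genes and between genes. A region counted as a gene end if no more than 2 kb separated it from where a gene begins or stops. Gene ends held 71 positive and 10 negative calls among 19805 regions (0.409%), the inside of genes 51 and 2 among 10252 (0.517%), and the space between genes 14 and 1 among 5734 (0.262%). At gene ends without a protein-coding gene 37 of 3923 regions were called (0.943%), against 44 of 15882 with one (0.277%). Regions holding a listed start of a gene had 22 positive and 4 negative calls among 11775 (0.221%, against 0.416% of all regions). By level, the share called was highest in regions of 1 to 3 log2 CPM. Under 1 log2 CPM 24 of 10476 regions were called (0.229%, median SE 0.59), between 1 and 3 it was 84 of 8354 (1.01%, median SE 0.32), between 3 and 6 it was 33 of 10931 (0.302%, median SE 0.13), and from 6 upwards 8 of 6030 (0.133%, median SE 0.083).

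Of 58 genes of germline and meiosis 29 had a region at a gene end, and 2 of them had a called difference, both positive, beside 0.378% of all gene-end regions. The list had a median difference of 0.24, against -0.03 over all genes with such a region. In KO over WT 10 of the 29 were called higher, beside 6.92% of gene-end regions, and in ifKO over ifWT 1 was, beside 3.31%. These 2 counts come from separate tests, and for most members the difference itself was not called. Henmt1, which acts on small RNAs of the germline, was not in this list, and its called difference was negative (-1.62).

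D1Pas1 is a testis helicase gene needed for sperm formation. Its region (chromosome 1, 186967324 to 186968158) overlaps the promoter printed above and held 2.58 and 2.83 CPM in KO, 0.133 and 0.0445 in WT, 0.155 and 0.279 in ifKO, and 0.145 and 0.266 in ifWT. In reads, these were 64 and 78 in KO, 3 and 1 in WT, 3 and 5 in ifKO, and 3 and 6 in ifWT. Only KO was above a handful of reads, and the difference was 4.79 ± 0.99 (edgeR adjusted p = 0.019; 0.011 to 0.33 over the alternatives, highest without ifWT replicate 2). D1Pas1 is a retrogene related to Ddx3x, and reads in its coding part could be shared with that gene. Rnf17, a Tudor protein gene of the testis, held 2.74 and 3.23 CPM in KO, 1.33 and 1.11 in WT, 0.671 and 0.671 in ifKO, and 1.11 and 1.15 in ifWT. KO was high and ifKO low there, with a difference of 2.04 ± 0.47 (edgeR adjusted p = 0.047), a call lost in each of the 8 fits that left out 1 library and in DESeq2 (adjusted p = 0.25, the highest of 0.020 to 0.25).

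Other germline genes had wide intervals. Cyct, the testis form of cytochrome c, held 2.66 and 2.29 CPM in KO, 0.0889 and 0.356 in WT, 0.207 and 0.279 in ifKO, and 0.0967 and 0.311 in ifWT, yet its difference of 3.23 (95% interval 1.28 to 5.17) had an edgeR adjusted p of 0.17. Ccnb1ip1, a factor of meiotic crossing over, had 2.48 (1.28 to 3.68; adjusted p = 0.053). Ddx4, the Vasa helicase of germ cells, had 1.24 (-0.03 to 2.52), and Sycp3, of the synaptonemal complex, had 0.58 (-0.41 to 1.56). Stk31 had log2 changes of 2.09 in KO over WT and 1.46 in ifKO over ifWT (adjusted p = 0.00039 and 0.081), and its difference of 0.63 ran from -0.70 to 1.96. Dazl, an RNA-binding protein gene of germ cells, was the member called in ifKO over ifWT (0.31, adjusted p = 0.0495), with a difference of -0.08.

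**Figure D4:**
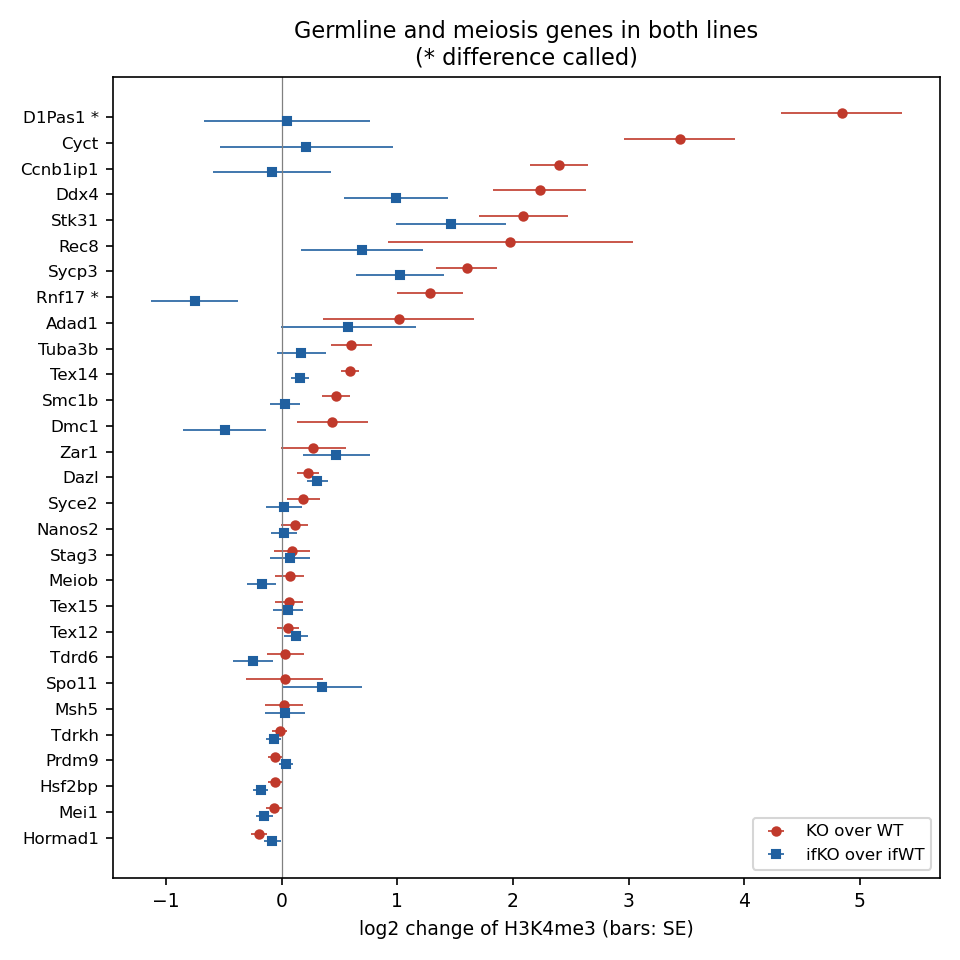
Log2 change of H3K4me3 in KO over WT (red circles) and in ifKO over ifWT (blue squares) at 29 germline and meiosis genes, with bars of 1 SE, sorted by the KO change. D1Pas1, Cyct and Ccnb1ip1 are raised by 2.40 or more in KO and lie near 0 in ifKO, while D1Pas1 and Rnf17, marked with a star, have a called difference.

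Of the other lists few members differed. At 1 region per gene, where 0.378% of gene-end regions were called, 1 of 16 oligodendrocyte genes, 1 of 27 pyramidal and granule cell genes (Camk2a) and 1 of 19 genes of other brain regions (En2) were called. None was called among 15 astrocyte, 19 microglia, 17 interneuron and 8 choroid plexus and ependymal genes. The same held for 25 H3K4 enzymes, 21 germline repressors, 38 activity-induced, 33 synaptic, 57 protocadherin, 51 cytosolic ribosomal and 23 interferon genes. The largest list median among these was 0.09 for interferon genes and the lowest -0.10, for pyramidal and granule cell genes.

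Oligodendrocyte genes had 4 called regions of 52 when all their regions were counted, a count added after seeing the data (7.69%, against 0.416%). Counted so, germline and meiosis genes had 2 of 37 (5.41%) and astrocyte genes 1 of 35 (2.86%). Vascular and mural genes had 1 positive and 1 negative of 61 (3.28%). At 1 region per gene, oligodendrocyte genes had medians of -0.13 in KO over WT, -0.17 in ifKO over ifWT and 0.04 for the difference. Gpr17, a receptor of cells committed to the oligodendrocyte lineage, held 14.3 and 14.6 CPM in KO, 9.11 and 8.41 in WT, 5.63 and 6.04 in ifKO, and 7.74 and 6.43 in ifWT. KO was the highest and ifKO the lowest, with a difference of 1.00 ± 0.21 (edgeR adjusted p = 0.024; 0.0096 to 0.20 over the alternatives). Cspg4 encodes the NG2 proteoglycan of oligodendrocyte precursors. The region named for it lies outside the gene (chromosome 9, 56900476 to 56901518) and had a difference of 2.53 ± 0.40 (edgeR adjusted p = 0.0012). It held 5.75 and 4.76 CPM in KO, 1.38 and 1.42 in WT, 1.14 and 0.950 in ifKO, and 1.45 and 1.77 in ifWT. A pair of regions between genes beside Olig1, a transcription factor gene of the lineage, had 1.76 ± 0.38 and 2.43 ± 0.54 (edgeR adjusted p = 0.026 and 0.031). Those calls held in 3 and 1 of the 8 fits that left out 1 library, while that of Cspg4 held in all 8. Slc1a2, the glutamate transporter of astrocytes, had 0.89 ± 0.20 at 1 region inside the gene (edgeR adjusted p = 0.044), a call that held in 3 of those 8 fits. Whether the share of glial cells differed between the groups was not tested.

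Rises in KO were looked at again in libraries that the difference did not use. In mice of the same mixed background sampled after 1 h in an unfamiliar environment (novelty), 2 KO and 2 WT libraries were compared in a fit of their own, where 4807 of 35509 regions were called higher (13.5%) and 3369 lower (9.49%). Of the 136 regions with a positive difference, 132 were higher in KO than in WT after novelty and 129 were called, with a median log2 change of 1.67. Of the 122 raised in KO alone, 122 were higher and 121 were called. Of the 13 with a negative difference, 5 were called higher and 3 lower. The 6 lowered in KO alone held less well: Ogn, Net1 and Gm35479 were called lower after novelty, while Zfp972 (-0.52, adjusted p = 0.24), Cfl2 (-0.11) and Gm45871 (0.25) were not. No second set of ifKO libraries was used here, so the ifKO part has no such check.

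Regions chosen by the novelty libraries alone also changed more in KO. The 4807 regions higher after novelty had a median log2 change of 0.56 in KO over WT and 0.30 in ifKO over ifWT, and 70.5% had a positive difference. The gap widened with the size of the rise after novelty. Under 0.5 on the log2 scale the medians were 0.25 in KO over WT and 0.18 in ifKO over ifWT, and at 2 and over, with 297 regions, they were 2.19 in KO over WT and 0.72 in ifKO over ifWT. Since the regions were chosen in the KO cohort, a larger KO change is partly built into this choice.

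**Figure D5:**
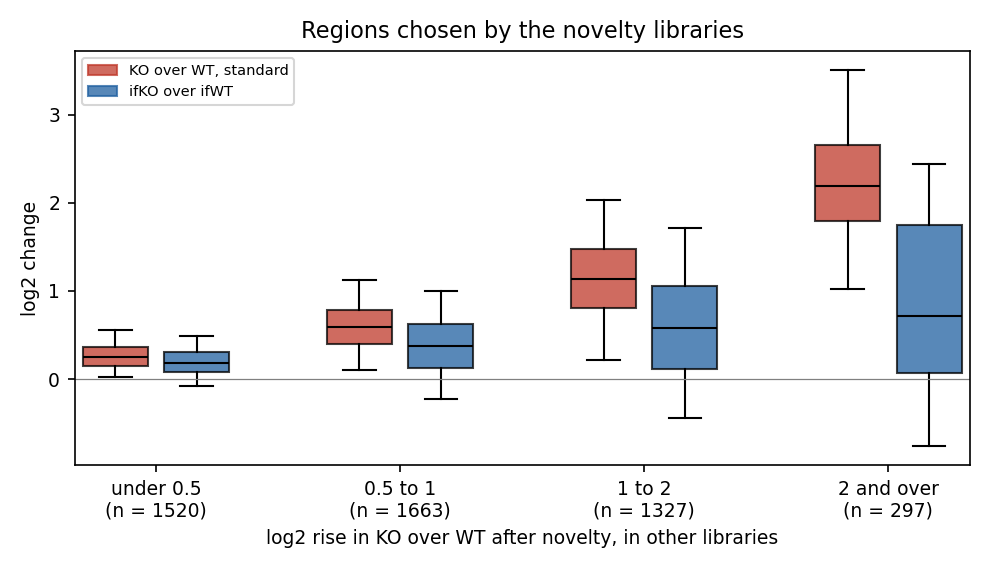
Regions called higher in KO over WT after novelty, grouped by the size of that rise, with boxes of the log2 change in KO over WT under standard conditions (red) and in ifKO over ifWT (blue). Boxes span the quartiles with a line at the median and whiskers from the 5th to the 95th percentile; the medians are 2.19 in KO and 0.72 in ifKO in the group of 2 and over.

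Few differing regions lay in the regions listed for Kdm5C. The files of the Kdm5C antibody cover 2321 regions, which overlapped 3 of the 136 positive regions (2.21%), 1 of the 13 negative ones and 6.47% of all tested regions. The overlapped regions were at 0610040J01Rik, 2310015A10Rik and Jag2, and the negative one at Cfl2. With 1 library per genotype and no scaling of this signal, no test was made.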

How the data were processed

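H3K4me3 was measured by chromatin immunoprecipitation and sequencing, with 1 antibody for the 8 libraries compared; 1 ifWT title names another residue, and its antibody label was followed. The authors deposited raw read counts per region for 36005 regions on GRCm38/mm10. Per the submitters' processing notes, MACS2 2.1.0, Bowtie2 2.2.9, R 3.3 with DESeq2 1.10.0, and SAMtools 1.3.1 were used. The sources used here do not say how regions were chosen. For H3K4me1 and Kdm5C the deposited values are summed signal per region, unscaled, with 1 library per genotype; they were described and not tested.

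After 9 repeated regions and 205 with low counts were left out, counts were scaled by TMM and fitted with edgeR 4.0.16 (R 4.3.3), with 1 mean per group. Tests were quasi-likelihood, two-sided, adjusted by Benjamini-Hochberg over all regions, called at 0.05. CPM are counts per megaread of the TMM-scaled library. Alternatives used DESeq2 1.42.0, limma 3.58.1, other scalings, no filter, all 12 H3K4me3 libraries, a replicate block and each library left out. The fit was tested on simulated data. Libraries are pools, so p-values measure the spread between 2 pools per group, and counts without molecular identifiers limit the precision.

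Regions were named by RefSeq genes within 2 kb of a gene end, else the gene around them, else the nearest within 50 kb, from a table without strand. Named regions were the 8 largest differences in each direction at 1 log2 CPM or more, the 4 largest per combination of the separate effects, called list members, the 2 largest in each of the 5 top windows, and genes picked by name. Other genes given were chosen after their values were seen. Members and lists were chosen with earlier results of these data known.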

Additional observations from a re-analysis of the deposited data

Results flagged for a closer look

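The difference between the KO effect and the ifKO effect is itself a test between groups, and it was called at 136 regions with a positive and 13 with a negative value. The 30 named ones are listed here. Values are log2 differences, KO effect minus ifKO effect, called by edgeR.

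Called higher in KO over WT and not called in ifKO over ifWT were Ssh1 (4.83, inside the gene), D1Pas1 (4.79), Gm16013 (4.27), Gm33919 (4.17), Cdk19 (3.87), Gm29642 (3.47), Gm41429 (3.07), Lpgat1 (3.05), LOC108167736 (3.01), Gm33979 (2.50), Rnf17 (2.04), Map3k8 (1.95), Gm51772 (1.83) and Gpr17 (1.00). Raised in both lines and more in KO were Tnxb (1.26), Gm38452 (1.01) and Zfp532 (0.49). En2 (0.79) was raised in KO and lowered in ifKO, and Fam177a (0.42) and Fam177a2 (0.40) were called lower in ifKO only, with the KO effect not called.

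Of the negative differences, Gm46632 inside Camk2a (-3.36), Gm46874 (-2.06), Henmt1 (-1.62) and the end of Camk2a (-1.01) were called higher in ifKO over ifWT and not called in KO over WT, although at Gm46874 both KO libraries exceeded both WT libraries. Wbp11 (-1.89) and Arsi (-1.51) were raised in both lines and more in ifKO. Ogn (-2.07), Zfp972 (-2.04), Gm45871 (-1.40) and Net1 (-0.44) were called lower in KO over WT and not called in ifKO over ifWT.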

How the results depend on the processing

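The number of differing regions depended on the method, and the cause was not tested. Against 149 (136 positive, 13 negative), there were 252 with all 12 libraries (234 positive), 91 with DESeq2 (82 positive), 53 with limma-voom (45 positive, 8 negative), 54 with limma-voom and weights per group (46 positive, 8 negative) and 210 positive with library totals in place of TMM. With 1 library left out, the count ran from 59 to 290, positive calls from 54 to 195 and negative ones from 5 to 95. Without WT replicate 1 there were 81 (63 positive), without WT replicate 2 59 (54 positive, 5 negative), without ifKO replicate 2 290 (95 negative), without ifWT replicate 2 60 positive and 41 negative, without ifKO replicate 1 23 negative and without ifWT replicate 1 29 negative. Of the 149, 36 were called under all 17 alternatives; DESeq2 shared 90 of its 91 calls with them.

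KO over WT was called at 2763 regions with DESeq2 and at 1603 to 5440 with 1 library left out (2152 without KO replicate 1, 2046 without WT replicate 1, 1603 without WT replicate 2). IfKO over ifWT was called at 1034 with DESeq2 and at 892 to 2230 with 1 library left out (892 without ifKO replicate 1, 999 without ifWT replicate 1). Windows of 5 Mb with 2 or more calls numbered 33, and 13 with DESeq2. Same-numbered libraries did not deviate together (correlations of -0.001 and -0.036), and a fit with the replicate block called 114 regions.

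Of the 30 named regions called, 11 kept the call under every alternative, 6 lost it only when 1 library was left out and 13 under another setting. Uncalled differences near 0 changed sign: Cacng6 (0.0011 with library totals, -0.22 to 0.15 with 1 library left out), Npas4 (0.0065, and -0.26 to 0.15) and Rhof (0.021 with all 12 libraries, 0.0014 with DESeq2 and with DESeq2's size factors, 0.054 with library totals, 0.037 with offsets by region strength, -0.036 to 0.062 with 1 library left out). DESeq2 gave no adjusted p for D1Pas1. With 2 libraries per group, a median error of 0.59 (log2) under 1 log2 CPM let only differences of 1.96 or more be called there.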

Other observations

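Further regions at genes of glia and of development differed, chosen after their values were seen and with no test of a group. Pllp, which encodes the myelin protein plasmolipin, held 14.1 and 11.0 CPM in KO, 3.38 and 3.29 in WT, 1.55 and 1.06 in ifKO, and 1.79 and 2.84 in ifWT. The KO libraries were the highest, and the difference was 2.73 ± 0.35 (edgeR adjusted p = 0.00010). Kcnj10, a potassium channel gene of glia, held 7.32 and 6.28 CPM in KO, 1.51 and 1.78 in WT, 1.45 and 1.45 in ifKO, and 1.84 and 2.84 in ifWT at a region inside the gene. Again KO alone was high, with a difference of 2.74 ± 0.37 (edgeR adjusted p = 0.00018).

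Trim71, a regulator of early development, held 82.8 and 84.9 CPM in KO, 39.6 and 41.1 in WT, 89.6 and 74.7 in ifKO, and 68.3 and 59.9 in ifWT. Its difference was 0.70 ± 0.11 (edgeR adjusted p = 0.00076), the KO and ifKO libraries overlapped, and WT lay below ifWT by 0.67 (log2; adjusted p = 8.6e-07). Stra6, a receptor for retinol uptake, rose in both lines and more in ifKO, with a difference of -0.95 ± 0.20 (edgeR adjusted p = 0.023). The largest difference of all, 5.12 ± 0.90 at Gm52189 on chromosome 15 (edgeR adjusted p = 0.0043), came from weak signal: 1.69 and 1.60 CPM in KO, 0.311 and 0.400 in WT, 0 and 0.168 in ifKO, and 0.871 and 0.444 in ifWT.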
